A study of Mus musculus with 8 samples.

Results

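Described here are 9 genes of retinoic acid metabolism and signalling, out of 24411 genes in the deposited count table, measured by RNA sequencing in hepatocytes with and without Taf2. They are Rbp4, which encodes the blood carrier of retinol, the retinol and retinal oxidoreductase genes Rdh10 and Dhrs3, the aldehyde dehydrogenase genes Aldh1a1 and Aldh1a7, the retinoic acid hydroxylase genes Cyp26a1 and Cyp26b1, and the receptor genes Rara and Rarb. All 9 passed the filter on low counts, as did 12122 genes in all. The genes were picked by name with the difference between the genotypes already known, so their fold changes are given as a description with no test. Tests are given only for other genes. The lists of those other genes were also chosen with earlier results of these data known. Counts of the 9 genes past the threshold used for tests are a description too.

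The cells were hepatocytes, the main cells of the liver, from mice, harvested 2 days after plating. One group of 4 libraries carried the genotype label WT. The other group of 4 libraries carried the label TAF2 KO and came from mice with a conditional knockout of Taf2 in hepatocytes. Taf2 encodes a TFIID subunit, part of the machinery that starts transcription by RNA polymerase II. The sources used here do not give the Cre driver, the deleted part of the gene, strain, sex, age, culture medium or any vitamin A in it. Nothing in the labels says that replicates of a genotype came from separate mice or cultures, so the errors and p-values below measure the spread between these libraries, which may be technical.

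Retinol travels in blood bound to RBP4 and transthyretin and is stored as retinyl ester, in the liver mostly in stellate cells. RDH10 and related enzymes oxidise retinol to retinal, and DHRS3 reduces retinal back to retinol. Aldehyde dehydrogenases of the ALDH1A family oxidise retinal to retinoic acid, the ligand of the nuclear receptors RARα, RARβ and RARγ, which bind DNA with an RXR partner. CYP26 enzymes hydroxylate retinoic acid for clearance, and Cyp26a1, Dhrs3 and Rarb are themselves known targets of retinoic acid.

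Expected counts summed to between 18947060 and 23933585 per library. Levels are in CPM, counts relative to the total of their library. Taf2 stood at 42.2 to 46.4 CPM in the wild-type libraries and 12.7 to 15.7 CPM in the knockout libraries, so every library matched its label. Of all genes tested, 61.4% differed between the genotypes at an edgeR adjusted p under 0.05, with 30.2% higher and 31.2% lower in the knockout. A median gene moved by 0.22 on the log2 scale in either direction. CPM values were scaled between libraries by the trimmed mean of M-values (TMM) and are given as mean ± SD of 4 libraries. Fold changes are on the log2 scale, knockout minus wild type, with a standard error (SE).

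Of the 9 genes, 6 were higher and 2 lower in the knockout past that threshold, beside 61.4% of all genes, and 1, Rarb, did not pass. The libraries of the 2 genotypes did not overlap for 8 genes, beside 54.7% of all genes. By direction these were 6 genes higher, beside 26.9% of all genes, and 2 lower, beside 27.8%. The values ran from 3.80 for Cyp26b1 to -1.43 for Aldh1a7. Both hydroxylase genes and Dhrs3 were higher, both aldehyde dehydrogenase genes were lower, and the receptor genes moved by at most 0.14.

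**Figure D1:**
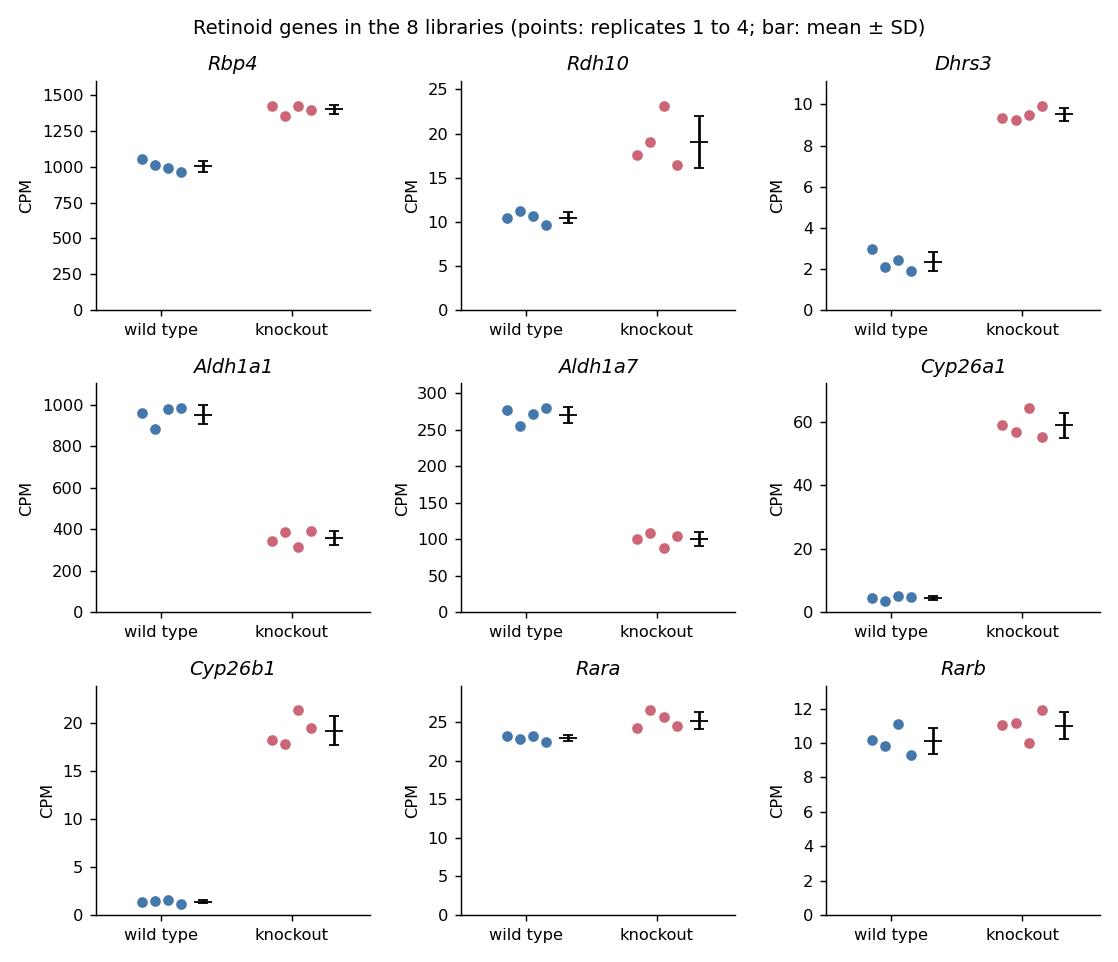
CPM of the 9 genes in each library (blue, 4 wild type; red, 4 knockout; black, mean ± SD), with each vertical axis starting at 0. The genotypes overlap for Rarb alone, Cyp26a1 and Cyp26b1 stand highest over their wild-type levels, and Aldh1a1 and Aldh1a7 are lower in every knockout library.

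The retinol carrier gene Rbp4 (chromosome 19, 38116620 to 38125321, minus strand, build GRCm38, which is mm10) was among the abundant transcripts of these cells. Its level was 1051, 1009, 995 and 960 CPM in wild-type replicates 1 to 4 and 1423, 1358, 1427 and 1399 CPM in knockout replicates 1 to 4. Every knockout library was above every wild-type library. The difference was 0.48 (SE 0.036), a fold of 1.40. Ttr, which encodes transthyretin, the partner of RBP4 in blood, rose from 1146 ± 37.2 to 1694 ± 42.8 CPM (0.56, SE 0.035; edgeR adjusted p = 2.53e-11). The ratio of Rbp4 to Ttr CPM was 0.876 ± 0.0351 in the wild type and 0.827 ± 0.00496 in the knockout, and the libraries of the genotypes overlapped. Of the 9 hepatocyte markers listed, Ttr among them, 5 rose, 2 fell and 2 did not pass, with a median difference of 0.27. Those that fell were Cps1, the urea cycle enzyme gene, at -0.65 (SE 0.047; edgeR adjusted p = 2.89e-10) and Apoa1, an apolipoprotein gene, at -0.29 (SE 0.032; edgeR adjusted p = 1.92e-07).

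Among 9 further genes for carriers, uptake and binding proteins, 4 passed the filter, of which 1 rose and 1 fell. Stra6l, a receptor for RBP4 found in liver, fell from 101 ± 3.97 to 81.9 ± 4.14 CPM (edgeR adjusted p = 1.97e-06). Fabp5, a fatty acid-binding protein gene, stood at 28.9 ± 2.79 and 31.2 ± 2.05 CPM (edgeR adjusted p = 0.148). Without wild-type replicate 4 Fabp5 passed, at 0.16 (edgeR adjusted p = 0.0429). Stra6, Rbp2 and Crabp1 had 0 counts in every library, which allows up to 3 counts, or 0.157 CPM in the smallest library, for counting error only. Crabp2 had at most 2 counts and Rbp7 at most 1.

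For storage and supply, 6 of 7 listed genes passed the filter, with 2 higher and 3 lower. Lrat, which encodes the enzyme that esterifies retinol and is also a marker of stellate cells, rose from 0.755 ± 0.323 to 2.65 ± 0.655 CPM (1.78, SE 0.25; edgeR adjusted p = 3.9e-06). Scarb1, a lipoprotein and carotenoid receptor gene, rose by 0.14 (SE 0.036; edgeR adjusted p = 0.00249). Bco1, whose product cleaves β-carotene to retinal, fell from 194 ± 3.92 to 133 ± 4.81 CPM (edgeR adjusted p = 8.66e-11), and Pnpla3, which encodes a lipase of triglycerides and retinyl esters, from 1.93 ± 0.228 to 0.784 ± 0.346 CPM (edgeR adjusted p = 0.000116). Dgat1, which encodes an acyltransferase, had a difference of -0.21 (SE 0.071; edgeR adjusted p = 0.0155), and its call ended without wild-type replicate 4 (-0.16, edgeR adjusted p = 0.059).

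Rdh10 (chromosome 1, 16105882 to 16132550, 6 exons), the gene for the retinol dehydrogenase that starts retinoic acid synthesis, was at 10.5, 11.2, 10.6 and 9.65 CPM in the wild-type libraries and 17.6, 18.99, 23.2 and 16.4 CPM in the knockout libraries. Knockout replicate 3 was the highest, and the genotypes did not overlap. The difference was 0.87 (SE 0.092), and 0.76 without knockout replicate 3. Dhrs3 (chromosome 4, 144892534 to 144928209), whose product works in the opposite direction, was at 2.95, 2.09, 2.45 and 1.92 CPM in wild-type libraries and 9.35, 9.24, 9.51 and 9.95 CPM in the knockout. The knockout libraries lay close together, while wild-type replicate 1 was the highest of its genotype. The difference was 2.01 (SE 0.11), a fold of 4.02, from 41 to 68 counts per wild-type library and 185 to 221 per knockout library. Both genes of this opposed pair were thus higher in the knockout libraries, Dhrs3 by the larger factor.

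Of 16 other retinol and retinal oxidoreductase genes, 12 passed the filter; 6 rose, 3 fell and 3 did not pass the test. Adh1, the alcohol dehydrogenase gene and the most abundant of these, rose from 110.2 ± 5.48 to 245.3 ± 12.5 CPM (1.15, SE 0.044; edgeR adjusted p = 1.38e-14). Dhrs9 rose from 25.1 ± 0.492 to 40.4 ± 1.19 CPM (edgeR adjusted p = 9.06e-11) and Rdh16 from 2.82 ± 0.358 to 5.80 ± 0.612 CPM (edgeR adjusted p = 3.52e-07). In the other direction, Rdh7 fell from 155 ± 6.69 to 104 ± 3.29 CPM (edgeR adjusted p = 1.11e-10), Rdh11 from 90.6 ± 4.17 to 77.6 ± 1.82 CPM (edgeR adjusted p = 3.56e-05) and Dhrs4 from 38.2 ± 3.17 to 30.9 ± 1.67 CPM (edgeR adjusted p = 0.000137). Rdh7 in 8 libraries and Rdh9 and Rdh16 in 7 had fractional values, which arise when RSEM splits reads between similar genes, and their levels are uncertain. The call of Rdh9 (0.37, SE 0.14; edgeR adjusted p = 0.0277) ended without wild-type replicate 1 (0.0814), 2 (0.054) or 4 (0.0503), without knockout replicate 3 (0.0903) and with DESeq2 (0.0769). Adh4 at 0.16 (edgeR adjusted p = 0.094) passed without wild-type replicate 4 (0.0431), and Adh7 at -0.65 (edgeR adjusted p = 0.0808) passed without wild-type replicate 2 (0.0393) or knockout replicate 1 (0.0407). Adh7 had under 1 CPM in every library.

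Aldh1a1 and Aldh1a7 are neighbours on chromosome 19, at 20492583 to 20643463 on the plus strand and 20692953 to 20727556 on the minus strand, 49.5 kb apart, each with 13 exons in RefSeq. Aldh1a1 encodes the main retinal dehydrogenase of adult liver, and Aldh1a7 a close relative of it. Aldh1a1 was at 958, 883, 977 and 983 CPM in wild-type libraries and 346, 385, 317 and 390.0 CPM in the knockout, a difference of -1.40 (SE 0.054). Aldh1a7 was at 276, 255, 271 and 280 CPM in wild-type libraries and 101, 109, 87.9 and 105 CPM in the knockout, a difference of -1.43 (SE 0.052). For both genes, wild-type replicate 2 and knockout replicate 3 were the lowest of their genotype, and the genotypes were far apart.

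The counts of these 2 genes were not independent. Neither was whole in any of the 8 libraries, while their sum was whole in all 8 (within 0.011), so RSEM had divided reads between this pair. The sum is free of that division. It was 1221 ± 56.6 CPM in wild-type libraries and 460.0 ± 43.3 CPM in the knockout. Aldh1a7 made up 22.2% ± 0.325 of the pair's counts in the wild type (21.7% to 22.4%) and 21.9% ± 0.560 in the knockout (21.2% to 22.6%), and these ranges overlapped.

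The pair also shares promoter sequence, which is shown because both genes were lower by nearly the same factor. The 250 bases before each start are printed from the RefSeq promoter table (GRCm38.p6), at chr19:20601718-20601967 on the plus strand for Aldh1a1 and chr19:20727557-20727806 on the minus strand for Aldh1a7. The start used for Aldh1a1 is the one nearest to the transcript counted and lies inside the annotated gene. Capitals mark the hexamer bound by retinoid and other nuclear receptors (AGGTCA, with the variant AGTTCA, the variant GGGTCA and the variant GGTTCA, on either strand).
Aldh1a1: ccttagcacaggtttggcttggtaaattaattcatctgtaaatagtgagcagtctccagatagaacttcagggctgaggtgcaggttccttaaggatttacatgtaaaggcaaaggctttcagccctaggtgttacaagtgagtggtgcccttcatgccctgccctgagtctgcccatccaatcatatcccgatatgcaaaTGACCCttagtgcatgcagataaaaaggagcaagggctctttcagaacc
Aldh1a7: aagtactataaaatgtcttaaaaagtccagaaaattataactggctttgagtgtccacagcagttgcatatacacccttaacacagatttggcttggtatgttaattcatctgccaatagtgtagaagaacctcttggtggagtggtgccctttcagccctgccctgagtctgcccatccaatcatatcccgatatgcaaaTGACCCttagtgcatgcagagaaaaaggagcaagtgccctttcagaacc
Both hold the hexamer once, on the strand opposite to the one printed, from 49 to 44 bases before the start. An identical run of 65 bases, from 94 to 30 bases before the start in each gene, contains it, and 94 of the 100 bases next to the start are the same. Over the windows from 250 bases before to 50 after the start, a global alignment gave 72.4% identity, against 43.2% to 52.9% for the other 27 pairs of promoters among these genes. A hexamer of this kind is common, since 46.9% of 27025 genes in the promoter table hold at least 1.

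None of the other 3 listed genes of this step came near these levels. Aldh1a2 had at most 1 count and Aldh1a3 at most 3 in any library. Aldh8a1, whose product oxidises 9-cis-retinal, stood at 6.32 ± 0.174 and 6.997 ± 0.768 CPM (0.15, SE 0.093; edgeR adjusted p = 0.174), and passed only without knockout replicate 4 (0.22, edgeR adjusted p = 0.044) among the alternatives run.

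The hydroxylase genes had the largest differences of the 9 genes. Cyp26a1 (chromosome 19, 37697738 to 37701536, plus strand, 7 exons) was at 4.43, 3.69, 5.27 and 4.83 CPM in wild-type libraries and 59.04, 56.7, 64.3 and 55.2 CPM in the knockout. That was 76 to 103 counts per wild-type library and 1135 to 1488 per knockout library. The difference was 3.69 (SE 0.079), a fold of 12.9, which placed it 35th among the rises of all genes tested. Cyp26b1 (chromosome 6, 84571414 to 84593908, minus strand, 7 exons) was at 1.39, 1.46, 1.51 and 1.17 CPM in wild-type libraries and 18.3, 17.9, 21.4 and 19.5 CPM in the knockout. From 25 to 32 counts per wild-type library it went to between 358 and 494, a difference of 3.80 (SE 0.11) and a fold of 13.9. In both genes knockout replicate 3 was the highest library. The third family member, Cyp26c1, lies next to Cyp26a1 and had at most 1 count in any library.

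Not every retinoic acid hydroxylase gene went the same way. Cyp2c39, which encodes a cytochrome P450 of mouse liver with retinoic acid 4-hydroxylase activity, fell from 3.89 ± 0.530 to 1.23 ± 0.230 CPM (-1.65, SE 0.16; edgeR adjusted p = 2.93e-08). The reads of 1 library were partly shared with other genes.

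Cells other than hepatocytes can also express these genes, Cyp26b1 and Lrat in stellate cells among them. Of 12 stellate cell and fibroblast markers, 11 were tested, 9 rose and 0 fell, with the summed level at 74.6 to 77.4 CPM in wild-type libraries and 148 to 163 CPM in knockout libraries. Gfap had at most 1 count in the wild type and 0 in the knockout, and Col1a2 was at 0 in at least 1 library. Endothelial markers (10 listed, 9 tested, 9 rose) summed to 63.2 to 70.9 CPM in wild-type libraries and 162 to 169 CPM in knockout libraries. Macrophage markers (10 listed, 9 tested, 9 rose) summed to 83.4 to 112 CPM and 225 to 254 CPM, and cholangiocyte markers (6 listed, 4 tested, 2 rose, 2 fell) to 116 to 129 CPM and 153 to 181 CPM. Of the 9 hepatocyte markers, 5 rose and 2 fell. They summed to 59545 to 63740 CPM in wild-type libraries and 76298 to 82867 CPM in knockout libraries. The labelled cell type was thus present in every library. Alb, the albumin gene, made up most of the hepatocyte sum and carried its rise, at 38035 ± 1777 and 55183 ± 3032 CPM. The stellate sum was carried by Reln, which went from 61.7 ± 2.46 to 102 ± 5.16 CPM, a fold of 1.65. Most other stellate markers were at low level and had larger folds. Among the 11 tested the median difference was 2.42 on the log2 scale, above the 2.01 of Dhrs3 and below the 3.69 and 3.80 of Cyp26a1 and Cyp26b1. That median was the value of Pdgfrb, with 3 to 7 counts per wild-type library and 21 to 34 per knockout library. Pdgfrb, Col1a2 and Lum passed the low-count filter only through their knockout libraries. They could therefore come out only as rises, which lifts this median. The highest was Rgs5 at 3.55 (SE 0.15), near Cyp26a1, followed by Col1a2 at 3.13 (SE 0.45), Lum at 3.03 (SE 0.44) and Dcn at 2.94 (SE 0.085). Col1a2 had 0 to 4 counts per wild-type library and 16 to 27 per knockout library, and Lum 1 to 2 and 12 to 16. With so few wild-type counts the size of these 2 folds is uncertain. The median difference was 1.602 for the endothelial and 2.64 for the macrophage markers. The part of these cells in the differences was not tested. In such bulk samples, more or fewer cells of a type and more or less RNA per cell cannot be told apart.

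**Figure D2:**
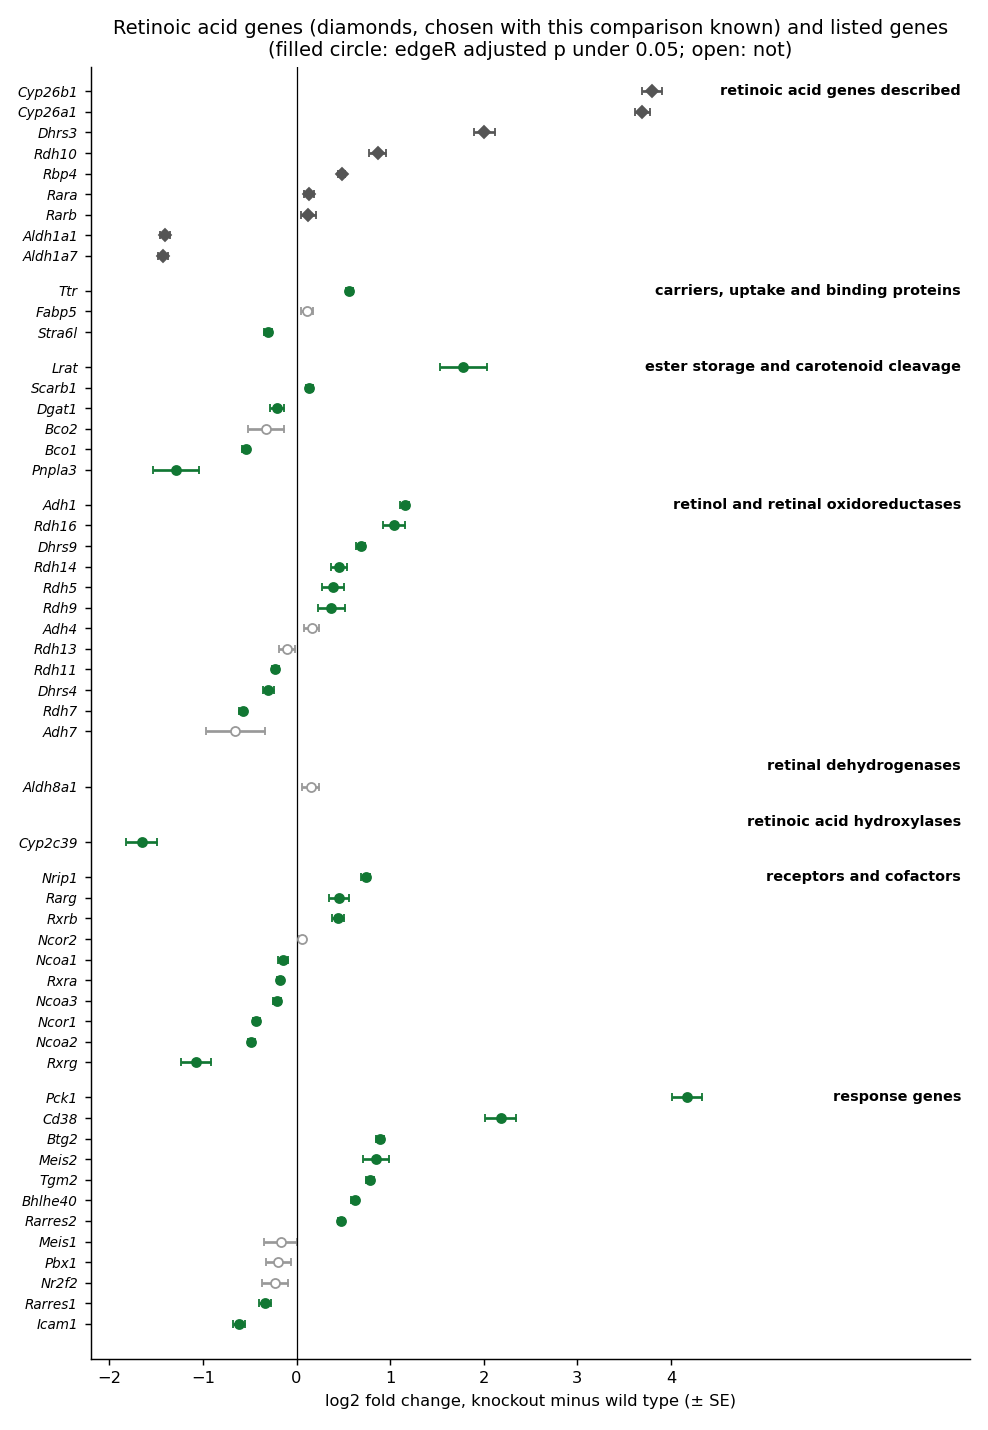
Log2 fold change (knockout minus wild type, ± SE) of the 9 retinoic acid genes (diamonds) and of the listed genes that passed the low-count filter and are reported by name, by role (filled circles, edgeR adjusted p under 0.05; open circles, not). Cyp26b1 and Cyp26a1 stand at 3.80 and 3.69, Aldh1a1 and Aldh1a7 at -1.40 and -1.43, and the receptors and cofactors lie between -1.07 and 0.74.

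Cyp26a1 and Rarb are textbook genes with a retinoic acid response element next to the start, so their promoters are shown with the hexamers in capitals. The element called DR5 is a direct repeat of the hexamer with a spacer of 5 bases. The windows are chr19:37697558-37697807 on the plus strand for Cyp26a1 and chr14:16575477-16575726 on the minus strand for Rarb (RefSeq, GRCm38.p6), 250 bases before the start in each.
Cyp26a1: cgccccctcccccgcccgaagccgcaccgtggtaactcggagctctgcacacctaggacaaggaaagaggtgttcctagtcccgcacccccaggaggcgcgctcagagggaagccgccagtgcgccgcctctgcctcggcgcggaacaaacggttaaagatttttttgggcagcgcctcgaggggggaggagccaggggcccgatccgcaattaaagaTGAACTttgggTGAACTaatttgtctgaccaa
Rarb: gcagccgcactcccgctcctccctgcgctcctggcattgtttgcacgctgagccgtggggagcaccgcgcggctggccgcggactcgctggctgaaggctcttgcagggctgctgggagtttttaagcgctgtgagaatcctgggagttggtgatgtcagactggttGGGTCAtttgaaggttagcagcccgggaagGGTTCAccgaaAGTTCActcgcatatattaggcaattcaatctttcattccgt
Cyp26a1 holds the repeat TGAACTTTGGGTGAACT from 32 to 16 bases before the start, with the hexamer on the strand opposite to the one printed. The annotated Cyp26a1 gene begins at 37697738, upstream of the start used, so the repeat lies inside the annotated gene. Rarb holds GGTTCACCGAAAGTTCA from 53 to 37 bases before the start, on the strand printed, with 1 more hexamer further up. Searched on both strands from 250 bases before to 50 after the start, a DR5 was found in 2 of the 8 genes here that have a promoter entry, all but Rdh10, and in 31 of 27025 genes in the table (0.115%). Repeats with spacers of 2 bases (0.311% of genes) or 1 base (0.263% of genes) were found in none of the 8. These are matches of letters, and no match says only that the letters are not in this window. Cyp26a1, with the repeat, had a difference of 3.69, Rarb, also with the repeat, 0.12 and Cyp26b1, without it, 3.80.

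The receptor genes stood out little. Rara (chromosome 11, 98927800 to 98974942), the gene for RARα, was at 23.2, 22.8, 23.2 and 22.4 CPM in wild-type libraries and 24.2, 26.5, 25.6 and 24.4 CPM in the knockout. The genotypes did not overlap, but the gap was narrow, with a difference of 0.14 (SE 0.053). As a description, it was past the threshold in 9 of 16 settings. It was not past it with DESeq2, with no low-count filter, or without wild-type replicate 1, 2 or 4 or knockout replicate 2 or 3. There the difference was between 0.12 and 0.14. Rarb (chromosome 14, 16430839 to 17082331), the gene for RARβ, was at 10.2, 9.82, 11.1 and 9.32 CPM in wild-type libraries and 11.05, 11.1, 9.99 and 11.9 CPM in the knockout. Its genotypes overlapped, with a difference of 0.12 (SE 0.078), and it was past the threshold in 0 of the 16 settings. The table gives a single count for 4 RefSeq transcripts of Rarb, and the window with the DR5 lies inside the annotated gene, so the level from that start alone is not known.

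Of the 10 other receptor and cofactor genes, all were tested, and 3 rose, 6 fell and 1 did not pass. Rarg, the gene for RARγ, rose from 4.75 ± 0.367 to 6.54 ± 0.718 CPM (0.45, SE 0.10; edgeR adjusted p = 0.000765). The RXR genes did not move as one. Rxrb rose from 28.8 ± 2.34 to 39.1 ± 3.16 CPM (edgeR adjusted p = 4.1e-06), Rxra fell from 137 ± 2.72 to 122 ± 3.01 CPM (edgeR adjusted p = 0.00021), and Rxrg, at low level, fell from 2.99 ± 0.462 to 1.41 ± 0.152 CPM (edgeR adjusted p = 9.57e-06). Among cofactors, the corepressor gene Ncor1 fell from 170.04 ± 8.37 to 126 ± 4.56 CPM (edgeR adjusted p = 1.8e-08) and the coactivator gene Ncoa2 from 109 ± 4.99 to 78.1 ± 2.81 CPM (edgeR adjusted p = 1.84e-09). Nrip1, the gene for the ligand-dependent cofactor RIP140, rose from 33.1 ± 2.08 to 55.2 ± 1.51 CPM (edgeR adjusted p = 3.6e-11). The call of Ncoa1 (-0.14, SE 0.054; edgeR adjusted p = 0.0259) ended with upper-quartile scaling (0.0585) and DESeq2 (0.065), and without wild-type replicate 2 (0.0804) or knockout replicate 1 (0.0893) or 3 (0.0659).

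Over all 47 other pathway genes, 34 were tested, 12 rose, 14 fell and 8 did not pass, that is 76.5% called beside 61.4% of all genes. Their median difference was -0.02, against 0.00 for all genes tested. The list was chosen with earlier results of these data known, so its share called is a description. Most of the 13 genes under the filter were nearly absent, with at most 6 counts in any library and 5 of them at 0 throughout.

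Genes outside the pathway that are known to respond to retinoic acid were read the same way. Of 22 listed, 13 were tested, and 7 rose, 3 fell and 3 did not pass (median 0.48), that is 76.9% called beside 61.4% of all genes, of which 30.2% were higher and 31.2% lower. Pck1, a gluconeogenesis gene whose promoter is known to bind retinoic acid receptors and many other factors, rose from 1.59 ± 0.177 to 28.5 ± 6.32 CPM (4.17, SE 0.16; edgeR adjusted p = 2.04e-14). Tgm2, the transglutaminase gene, was the most abundant and rose from 4216 ± 115 to 7256 ± 475 CPM (edgeR adjusted p = 3.36e-12), and the antiproliferative gene Btg2 from 109 ± 6.91 to 203 ± 3.59 CPM (edgeR adjusted p = 3.18e-13). Cd38, an NAD glycohydrolase gene that macrophages also express, rose from 0.961 ± 0.213 to 4.33 ± 0.459 CPM (edgeR adjusted p = 5.23e-10). Icam1, an adhesion molecule gene, fell from 95.2 ± 3.82 to 62.2 ± 8.38 CPM (edgeR adjusted p = 8.05e-08), and Rarres1 from 16.4 ± 0.365 to 13.002 ± 0.730 CPM (edgeR adjusted p = 0.000149). The list was chosen with Pck1 and Btg2 known to be higher, and many of its genes answer to other signals as well.

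Hox genes, which retinoic acid is known to switch on in embryos, were under the filter. Hoxa5 had 2 to 4 counts per wild-type library and 9 to 15 per knockout library, and Hoxb4 0 to 5 and 5 to 10. Hoxa4 had at most 1 count in the wild type and 1 to 4 in the knockout, and Nr2f1, an orphan nuclear receptor gene, at most 1 and 3 to 7. With no filter these 4 genes were called higher by edgeR, at adjusted p = 0.000526, 0.00447, 0.0338 and 0.0117, which brought the response genes called higher from 7 to 11. Hoxb1 and Cdx1 had 0 counts in every library, and Stra8 had at most 1.

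Levels of different genes can be compared only per length. CPM were divided by the median length in kilobases of the transcripts counted for each gene, as far as lengths were found. For Rarb, with 4 transcripts listed, 1 length of 3108 bases was found. The place of Rarb in the orders below rests on that length alone. On this scale the wild-type order was Rbp4 at 957 ± 35.95, Aldh1a1 at 463 ± 22.5, Aldh1a7 at 131 ± 5.29, Rara at 7.19 ± 0.116, Rarb at 3.25 ± 0.244, Rdh10 at 2.92 ± 0.176, Cyp26a1 at 2.54 ± 0.374, Dhrs3 at 1.28 ± 0.247 and Cyp26b1 at 0.332 ± 0.0361 CPM per kb. Rarb and Rdh10, and Rdh10 and Cyp26a1, overlapped between libraries. All other neighbours in that order were separate.

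In the knockout the first 3 kept their places, and Cyp26a1 followed them at 32.8 ± 2.23 CPM per kb, above Rara at 7.91 ± 0.336. Rdh10 at 5.31 ± 0.819, Dhrs3 at 5.16 ± 0.168 and Cyp26b1 at 4.63 ± 0.374 CPM per kb overlapped as neighbours, and Rarb was last at 3.54 ± 0.252. With the longest transcript in place of the median length, Rara, Dhrs3 and Rbp4 came out lower, at 6.77, 1.01 and 865 CPM per kb in the wild type and 7.44, 4.07 and 1207 in the knockout, which would put Cyp26b1 above Dhrs3 in the knockout.

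**Figure D3:**
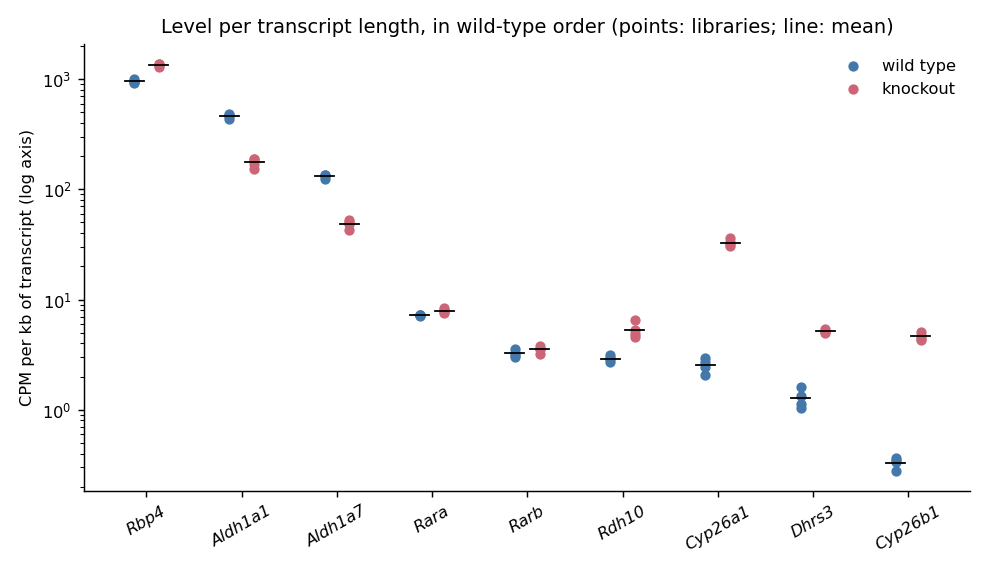
Level per transcript length of the 9 genes (CPM per kb, log axis) in each library (points) with the genotype mean (line), in wild-type order. Cyp26a1 goes from 2.54 to 32.8 and Aldh1a1 from 463 to 175, which narrows the distance between them.

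Aldh1a1 transcripts outnumbered those of the hydroxylases in both genotypes, by a smaller factor in the knockout. The level per length of Aldh1a1 was 166, 178, 144 and 161 times that of Cyp26a1 and Cyp26b1 together in the wild type. It was 4.51, 5.22, 3.76 and 5.35 times that level in the knockout. Cyp26a1 was above Cyp26b1 in every library, by 7.74 ± 1.53 times in the wild type and 7.11 ± 0.416 times in the knockout, and these ranges overlapped. These are ratios of transcripts, and neither enzyme amounts nor retinoic acid were measured.

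Within a genotype the 9 genes did not vary as a block. Knockout replicate 3 was the highest knockout library for Cyp26a1, Cyp26b1, Rdh10 and Rbp4 and the lowest for Aldh1a1, Aldh1a7 and Rarb. Its deviations from the knockout mean on the log2 scale were 0.13, 0.15 and 0.29 for Cyp26a1, Cyp26b1 and Rdh10, and -0.18 and -0.19 for Aldh1a1 and Aldh1a7. Among all tested genes that library was the highest of the knockout for 26.6% and the lowest for 27.5%. Wild-type replicate 4 was the lowest wild-type library for 6 of the 9 genes, against 25.1% of all tested genes, but Cyp26a1, Aldh1a1 and Aldh1a7 were above their mean there. The widest spread was in Dhrs3 in the wild type, from 0.35 to -0.27.

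**Figure D4:**
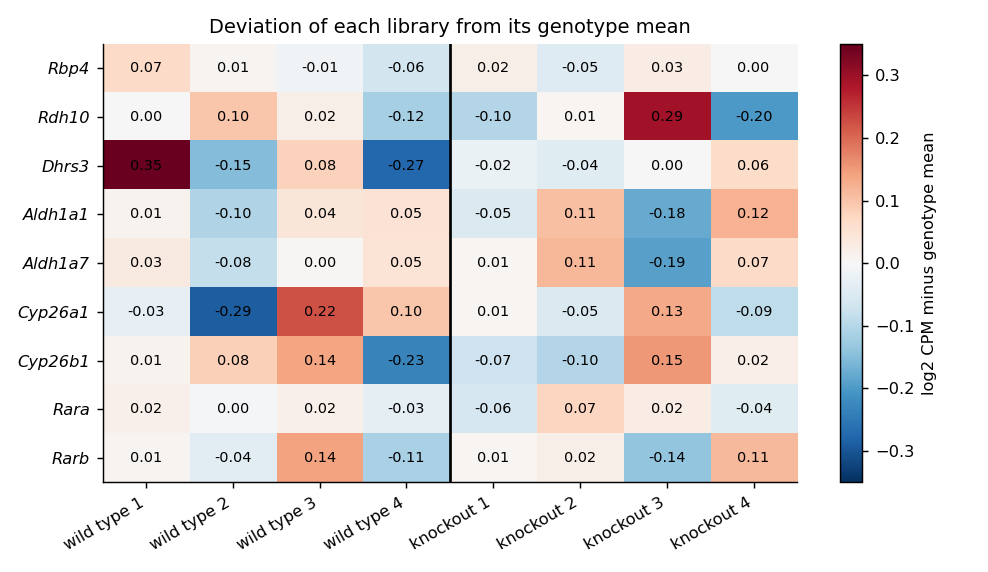
Deviation of log2 CPM of each library from its genotype mean for the 9 genes (red above, blue below the mean; wild type left and knockout right of the line). Knockout replicate 3 is high for Rdh10 (0.29) and low for Aldh1a7 (-0.19), and Rara and Rbp4 show the smallest deviations over the 8 libraries.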

How the data were processed

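RNA sequencing libraries of hepatocytes, 4 wild type and 4 Taf2 knockout, were compared. The authors deposited estimated counts (expected counts) per gene, made with RSEM on mm10, per the submitters' processing notes. No RSEM version, aligner or strand setting is named in the sources used here. The 8 columns named after the samples' libraries were used, and 8 others that match no sample were not. Of the values, 2.85% were not whole, because RSEM divides reads among similar genes.

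Counts were rounded, filtered with filterByExpr (minimum count 10, minimum total 15), scaled by TMM and tested with edgeR's quasi-likelihood test over 12122 genes, with Benjamini-Hochberg adjustment at 0.05 (R 4.3.3, edgeR 4.0.16, limma 3.58.1, DESeq2 1.42.0). The SE is the size of the log2 fold change over the root of F. On simulated counts for this comparison with 12007 genes, 71.9%, 86.1% and 95.2% of genes changed 1.25-, 1.5- and 2-fold were recovered, with 10 false calls. Each pair of replicates differed by more than sampling noise (chi-square per degree of freedom 3.19 to 8.70).

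The 9 genes and all lists were chosen with earlier results of these data known. Listed genes were named by a rule of up to 3 per direction and role, by adjusted p, plus the most abundant. Dgat1, Fabp5, Rdh9, Rxra, Ncoa1, Cd38, Adh4, Adh7, Alb, Apoa1, Cps1, Reln and Dcn were named after their values were seen. So were Lum, Rgs5, Col1a2, Pdgfrb, Cd68, Sox9 as a marker, Gfap, Blvrb, the neighbours and the genes under the filter. Some listed genes are counted but not reported here by name. Transcript lengths came from GENCODE M21 through RefSeq accessions, and promoters and positions from RefSeq (GRCm38.p6). Alternatives were other scalings, tests, filters, a replicate block and leaving out each library.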

Additional observations from a re-analysis of the deposited data

Results flagged for a closer look

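Among 112 groups of 4 libraries (56 genes in 2 genotypes), 2 held a library far from the other 3, where chance alone gives about 1 group in 20. Rxra was at 117 CPM in knockout replicate 3, against 123 to 124 CPM in the other knockout libraries. Rarres1 was at 16.9 CPM in wild-type replicate 4, against 16.2 CPM in the other wild-type libraries, which nearly coincided. None of the 9 retinoic acid genes had such a library.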

How the results depend on the processing

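Under 15 alternatives, the 135 values of the 9 genes all kept their direction and moved by less than the spread between replicates. Leaving out each library gave 3.61 to 3.76 for Cyp26a1, 3.73 to 3.84 for Cyp26b1, 1.92 to 2.14 for Dhrs3 and 0.76 to 0.94 for Rdh10. Of 691 values of 47 tested pathway and response genes, 674 kept their side of the threshold, 11 lost and 6 gained a call, and 0 changed direction. Response genes called higher were 11 with no low-count filter, against 7. Levels per length moved with the longest transcript for Rara (6.77 and 7.44 CPM per kb in wild type and knockout), Dhrs3 (1.01 and 4.07) and Rbp4 (865 and 1207).

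Replicate numbers are shared by the genotypes, but nothing says that they pair libraries. Same-numbered libraries had residual correlations of -0.069 to 0.011. With the replicate number as a block, 3666 genes were higher and 3771 lower, against 3663 and 3784, with 12 higher and 14 lower among pathway genes and 7 and 3 among response genes. Depth limits genes with few counts, such as Lrat, Pnpla3 and the Hox genes.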

Other observations

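Neighbours were taken by lower coordinate, within 250 kb of the lower coordinate of any of the 9 genes. Of 24 tested neighbours outside the 9 genes, 5 rose and 10 fell, beside 61.4% called among all genes. On the minus strand that coordinate is the end of the gene, so the region before the annotated start of Rarb was not covered. Exoc6, on the far side of Cyp26c1 from Cyp26a1, fell from 28.7 ± 1.56 to 20.5 ± 0.553 CPM (edgeR adjusted p = 2.18e-07), and Exoc6b, next to Cyp26b1, from 46.02 ± 1.14 to 38.2 ± 1.37 CPM (edgeR adjusted p = 1.7e-05). Ffar4, a fatty acid receptor gene beside Rbp4, rose from 1.13 ± 0.425 to 6.87 ± 1.29 CPM (edgeR adjusted p = 3.11e-10). In the region before Rara, with other genes in between, the nuclear receptor genes Thra (3.80 ± 0.581 to 2.08 ± 0.333 CPM, edgeR adjusted p = 5.36e-05) and Nr1d1 (6.09 ± 0.744 to 13.7 ± 2.02 CPM, edgeR adjusted p = 8.93e-09) went opposite ways.

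Of the 31 genes with a DR5 at the start, 12 were in the table and 3 were tested. Beside Cyp26a1 and Rarb, the third was Blvrb, a biliverdin reductase gene, at 56.7 and 50.96 CPM (-0.15, edgeR adjusted p = 0.0541).

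Genes with a pattern closest to that of Cyp26a1 over the 8 libraries, by Pearson r of log2 CPM among 9453 genes with at least 5 CPM, were Smurf1, Tef, Maff, Sox9 and Fos (each r = 0.998). Their differences lay between 0.42 (Smurf1) and 2.16 (Fos). The libraries fall into 2 genotypes, so this measure mostly reads a steady level within each genotype, and 147 genes had r of at least 0.99.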
